A study of Mus musculus with 6 samples.

Results

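Cytokines, chemokines, the TNF family and their receptors were followed in cultured muscle stem cells (MuSCs). The genes were chosen by symbol alone: symbols that start with Ccl, Cxcl or Il and a number, or with Tnfsf or Tnfrsf and a number, and Cx3cl1, Csf1, Csf2, Lif, Lifr, Osm, Osmr, Tnf and Ctf1. Of the 18943 genes in the table, 81 met this rule, of which 79 are protein coding and 2 are antisense RNAs (Il1bos and Tnfsf13os). Osm had no row and was not analysed here. The members comprised 37 ligands, 40 receptors or receptor subunits, the interleukin-18 inhibitor Il18bp, the enzyme Il4i1 and the antisense RNAs.

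MuSCs were FACS-purified from wild-type C57BL/6 mice 8 weeks old and kept in culture for 5 days with the solvent DMSO, with endothelin-3 (ET-3) or with neurotensin (NT), each ligand at 100 nM per the labels, while the study's methods give another dose. ET-3 and NT are peptides that act on G protein-coupled receptors, and the study asked whether such ligands hold MuSCs in quiescence. Each group held 2 libraries, and nothing in the labels says that they came from separate cultures or animals, so p-values measure only the spread between these libraries, which may be technical. The series' design text speaks of triplicates and the study of biological samples, whereas 2 libraries per group were analysed here. All 3 groups shared the purification and the culture time, and the DMSO group served both ligand comparisons.

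Chemokines are secreted peptides that guide leukocytes and other cells. Receptors of the interleukin-6 family (for IL-6, IL-11, LIF, OSM and cardiotrophin) share the subunit gp130, encoded by Il6st, and signal through JAK kinases and STAT3, with Socs3 as a feedback inhibitor. Receptors of the IL-1, IL-17 and TNF families act largely through adaptors that lead to NF-kappaB. In muscle, OSM is known to induce MuSC quiescence, and TWEAK (Tnfsf12) acts on myoblasts through Fn14 (Tnfrsf12a).

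Values are read counts that the authors multiplied by a factor per library and rounded, and are called scaled read counts. The 6 libraries held 3629074 to 5396233 reads on genes, lowest in the ET-3 group and highest in the NT group. The MuSC and myoblast markers were present in every library. Over 10 genes their summed scaled read count was 13375 and 14380 under DMSO, 11832 and 11650 under ET-3, and 10703 and 10210 under NT. Of these, 2 (Cdh15 and Chrnd) were called lower and 0 higher under each ligand. Pax7, not called, was at 857 and 1070 under DMSO and 1599 to 1754 in the ligand libraries. The summed level of 10 differentiated muscle genes was 33611 and 37093 under DMSO, 1814 and 2146 under ET-3, and 2329 and 1904 under NT. A sum over the 7 leukocyte markers in the table, of 15 listed, was 112 and 121 under DMSO, 273 and 251 under ET-3, and 260 and 247 under NT, where Laptm5 and Cd14 were higher and Itgam was at 0 in all 4 ligand libraries. The leukocyte gene Ptprc had no row and was not analysed here. Over 7 of 10 endothelial markers the sums were 74 and 74, 129 and 137, and 111 and 147, with Tek at 2 and 1 under DMSO and 42 to 70 in the ligand libraries, and Vwf the other way at 38 and 52 and 13 to 26. Smooth muscle and pericyte markers summed to 6595 and 7525 under DMSO and 2466 to 2797 in the ligand libraries. Under each ligand, 6 of 8 tested were called lower and 0 higher. Des, also among the MuSC and myoblast markers, gave 1950 and 2280 of the DMSO sums and 1257 to 1688 of the ligand sums. Myh11 (0 to 4) and Kcnj8 (0 to 2) were near 0 in all libraries. Fibroadipogenic markers moved in both directions, with 2 of 7 tested called higher and 2 lower under each ligand. Their sum went from 2313 and 2548 to 1732 to 1834, while Cd34 went from 5 and 1 to 264 to 330 and Smoc2 from 12 and 18 to 78 to 98. The Schwann cell sum of 1618 and 1703 under DMSO and 720 to 815 in the ligand libraries followed Erbb3 (1458 and 1519 against 76 to 102), whereas Ngfr stood at 93 and 115 against 591 to 644. The part of these cell type signals in the results that follow was not tested. In bulk RNA, fewer cells of a type and less RNA per cell cannot be told apart.

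A gene was tested where its mean over the 6 libraries was at least 5, which 55 members passed and 26 did not. It was called changed at an adjusted p of at most 0.05 (limma, Benjamini-Hochberg over 13921 genes) with a change of at least 2-fold. With ET-3, 10 of the 55 members were called higher (18.2%), against 6.62% of all tested genes, and 12 were called lower (21.8%), against 14.9%. With NT, 14 were called higher (25.5%), against 7.3%, and 11 lower (20%), against 13.2%. By the adjusted p alone, 34 members (61.8%) differed with ET-3, against 63.7% of all genes, and 38 (69.1%) with NT, against 62.2%. The median log2 fold change of the tested members was 0.00 with ET-3 and 0.02 with NT, and -0.01 in both comparisons over all genes. The median absolute log2 fold change was 0.86 and 0.84 for the members, and 0.43 and 0.41 over all genes. Without DMSO replicate 1, the count called higher with ET-3 was 16. Of the called members, 2 higher and 2 lower with ET-3 and 3 higher and 2 lower with NT had a mean under 5 in the lower group. They passed the filter only through the libraries where they are high, so being called is no support for them. These were Cxcl14, Il17d and Il17rb under both ligands, Tnfrsf13c under ET-3, and Cxcl1 and Il12rb1 under NT. In a limma fit with no level filter, the adjusted p was 0.000222 for Tnfrsf13c, 0.000483 and 0.000423 for Il17rb, 0.0042 for Cxcl1 and 0.0552 for Il12rb1. The 27 members called under either ligand are plotted by library, which shows where groups overlap.

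**Figure D1:**
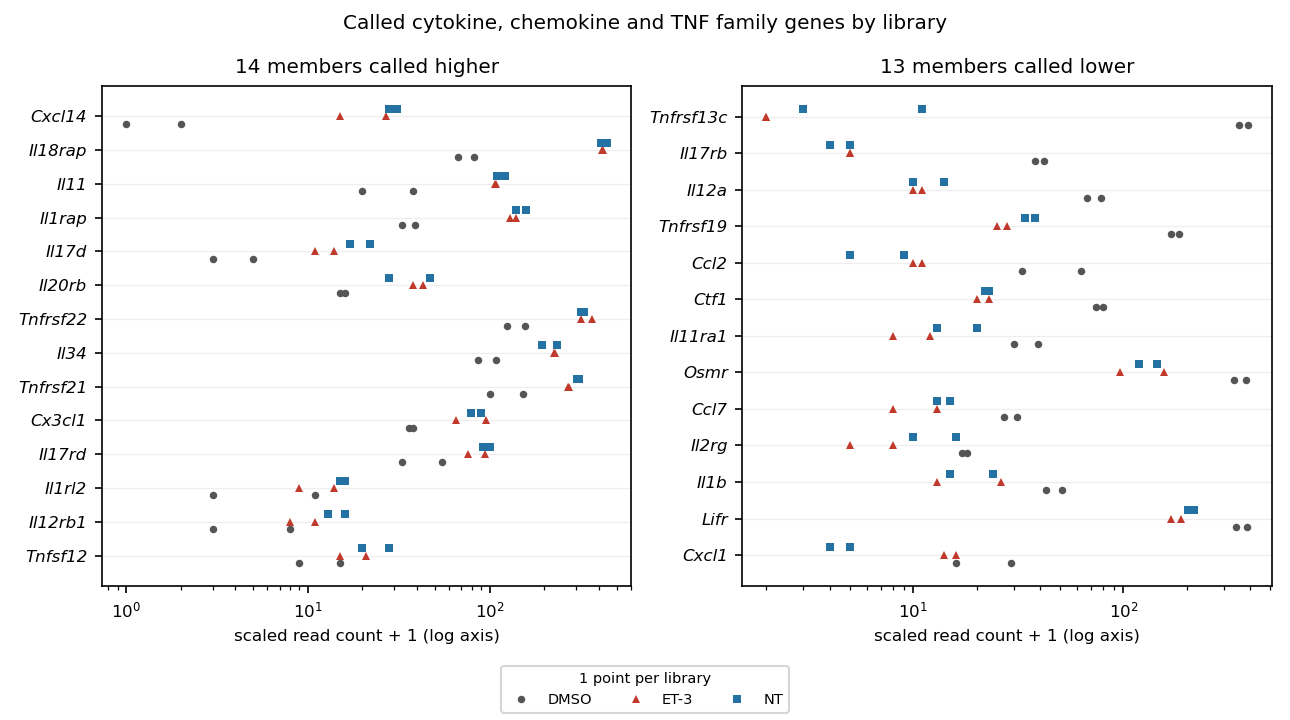
Scaled read count plus 1 (log axis) in each library for the 14 members called higher and the 13 called lower under at least 1 ligand, with DMSO as circles, ET-3 as triangles and NT as squares, 1 point per library. Tnfrsf13c stood at 354 and 390 with DMSO and at 10 or below in all 4 ligand libraries, and Cxcl14 at 1 and 0 with DMSO and at 14 or above in the ligand libraries.

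The largest decrease among the tested members belonged to Tnfrsf13c, which encodes the BAFF receptor, a survival receptor known from B cells (ENSMUSG00000068105, chr15:82221743-82224369, minus strand, GRCm38). Its scaled read count was 354 and 390 under DMSO, 1 and 1 under ET-3, and 10 and 2 under NT. The DMSO libraries lay far above all ligand libraries, and both ET-3 libraries stood at the lower end. The log2 fold change was -7.54 with ET-3 (SE 0.51, adjusted p = 7.82e-07) and -6.02 with NT (SE 0.51, adjusted p = 4.16e-06). The ET-3 group held 2 reads against 700 with DMSO, a 325-fold ratio with a 95% counting interval of 89.6 to 2689. NT minus ET-3 was 1.52 on the log2 scale (95% interval 0.38 to 2.66, adjusted p = 0.137), so the ligands were not shown to differ. Its ligand Tnfsf13b (BAFF) had 2 to 7 scaled reads per library and was not tested.

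The increase with the lowest adjusted p among the members was that of Il18rap, the accessory chain of the IL-18 receptor (ENSMUSG00000026068, chr1:40515362-40551705, plus strand). It was measured at 81 and 66 under DMSO, 417 and 414 under ET-3, and 410 and 443 under NT. All 4 ligand libraries exceeded the DMSO libraries about equally, and the log2 fold change was 2.49 with ET-3 (SE 0.10, adjusted p = 1.94e-08) and 2.53 with NT (SE 0.10, adjusted p = 1.95e-08). Its level per exonic kilobase went from 10.9 with DMSO to 61.5 and 63.2.

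Promoters of 5 members with large changes are shown so that their letters can be set beside the values. RefSeq's promoter table (GRCm38.p6) matched 60 of the 81 members by symbol, and 21 of the 27 called members. The 250 bases before the start are printed 5′ to 3′ on the gene's strand for the 2 genes above, and for a chemokine (Cxcl14), an IL-6 family receptor (Osmr) and an IL-17 family receptor (Il17rb) with large changes. Capitals mark matches, on either strand, to the E-box CAGCTG, the NF-kappaB motif GGGNNNNNCC, the AP-1 motif TGANTCA, the STAT motif TTCNNNGAA, the CArG box or TATAAA. No printed match overlaps another.
Tnfrsf13c, chr15:82224381-82224630, minus strand: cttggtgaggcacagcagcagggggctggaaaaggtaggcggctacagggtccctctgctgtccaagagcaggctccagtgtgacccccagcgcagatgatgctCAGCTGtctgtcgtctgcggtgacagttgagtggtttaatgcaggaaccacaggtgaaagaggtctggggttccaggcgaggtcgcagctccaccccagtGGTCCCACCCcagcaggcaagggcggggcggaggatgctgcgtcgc
Il18rap, chr1:40515112-40515361, plus strand: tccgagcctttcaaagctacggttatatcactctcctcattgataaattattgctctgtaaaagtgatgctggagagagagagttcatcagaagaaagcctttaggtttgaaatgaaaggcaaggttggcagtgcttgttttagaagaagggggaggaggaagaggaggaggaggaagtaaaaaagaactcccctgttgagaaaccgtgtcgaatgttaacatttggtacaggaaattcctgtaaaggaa
Cxcl14, chr13:56296552-56296801, minus strand: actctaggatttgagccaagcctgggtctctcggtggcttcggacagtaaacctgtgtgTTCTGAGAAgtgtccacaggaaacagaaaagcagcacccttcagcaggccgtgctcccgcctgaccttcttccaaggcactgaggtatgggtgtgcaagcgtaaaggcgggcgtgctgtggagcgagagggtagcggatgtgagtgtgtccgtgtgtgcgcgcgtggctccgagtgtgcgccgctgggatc
Osmr, chr15:6874314-6874563, minus strand: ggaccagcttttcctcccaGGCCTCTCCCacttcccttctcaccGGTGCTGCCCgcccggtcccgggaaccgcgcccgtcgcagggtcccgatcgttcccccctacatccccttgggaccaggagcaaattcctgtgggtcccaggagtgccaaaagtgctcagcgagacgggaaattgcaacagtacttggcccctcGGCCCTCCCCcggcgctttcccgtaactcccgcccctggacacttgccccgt
Il17rb, chr14:30008897-30009146, minus strand: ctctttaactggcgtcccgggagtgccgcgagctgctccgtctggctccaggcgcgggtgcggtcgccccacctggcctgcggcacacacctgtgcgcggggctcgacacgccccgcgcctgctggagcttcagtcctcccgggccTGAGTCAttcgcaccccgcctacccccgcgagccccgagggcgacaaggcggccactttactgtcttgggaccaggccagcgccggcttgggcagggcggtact

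The Tnfrsf13c window held a CAGCTG E-box 146 to 141 bases before the start and an NF-kappaB match 46 to 37 bases before it. In the Il18rap window none of the 6 motifs was found. The Cxcl14 window held a STAT match, the Osmr window 3 NF-kappaB matches and the Il17rb window an AP-1 match. Shares were counted in the same 250 bases before each start, without the last 50 bases of RefSeq's windows of 300. Among the 32851 promoter windows used, the E-box was in 13%, the NF-kappaB motif in 45.8%, the AP-1 motif in 6.75%, the STAT motif in 7.02%, TATAAA in 12.4% and the CArG box in 1.47%. Of the 75 windows of members, 12 held the E-box, 40 the NF-kappaB motif, 9 the AP-1 motif, 6 the STAT motif, 12 TATAAA and 0 the CArG box. Of 15 windows of members called lower, 3 held the E-box and 0 the STAT motif, and of 11 windows of members called higher, 1 held each of them. A match describes letters in a window and is not evidence of binding.

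Among the 15 chemokines, all of them ligands, 8 were tested. ET-3 had 2 called higher and 2 lower, and NT 2 higher and 3 lower. Ccl2, the main attractant of monocytes, was at 62 and 32 under DMSO, 10 and 9 under ET-3, and 8 and 4 under NT. Its groups did not overlap, and the log2 fold change was -2.12 with ET-3 (SE 0.41, adjusted p = 0.00116) and -2.76 with NT (SE 0.41, adjusted p = 0.00021). Ccl7, another monocyte attractant, was at 30 and 26, 7 and 12, and 14 and 12 in the same order. Its fall was -1.50 on the log2 scale with ET-3 (SE 0.33, adjusted p = 0.00258) and -1.05 with NT (SE 0.33, adjusted p = 0.0185). The NT call for Ccl7 was lost without DMSO replicate 1 (-0.95), DMSO replicate 2 (-1.15), NT replicate 1 (-1.15) or NT replicate 2 (-0.95).

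Ccl2, Ccl7 and Ccl11 lie next to each other on chromosome 11 (chr11:82035571-82062955, GRCm38), within 27.4 kb. Ccl11, the eosinophil attractant eotaxin, was too low to test at 4 and 9 with DMSO and was at 0 in all 4 ligand libraries. Set against a floor of 3 reads over the ligand group, it was 3.71-fold lower with ET-3 and 5.19-fold lower with NT. Such floor ratios take the DMSO reads as exact and do not cover their counting error. All 3 neighbours thus stood lower in every ligand library than in either DMSO library.

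A different pair of chemokines rose. Cxcl14, a chemokine known from epithelia, was at 1 and 0 under DMSO, 26 and 14 under ET-3, and 27 and 30 under NT. Set against the 1 read of the DMSO group, the ratio was 37.7 with ET-3 (95% counting interval 6.34 to 1531) and 54 with NT (9.38 to 2163). With no level filter, the adjusted p of Cxcl14 was 0.00127 and 0.000793 (limma). Cx3cl1, the membrane-bound chemokine fractalkine, was at 35 and 37, 94 and 64, and 78 and 89. Its log2 fold change was 1.09 with ET-3 (SE 0.20, adjusted p = 0.000913) and 1.19 with NT (SE 0.20, adjusted p = 0.000538), and without ET-3 replicate 1 the former was 0.81.

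Cxcl12, the ligand of Cxcr4 and Ackr3 that guides progenitor cells, was the chemokine with the highest level per length. It was at 1275 and 959 under DMSO, 1641 and 1651 under ET-3, and 1609 and 1535 under NT. The log2 fold change was 0.57 with ET-3 (SE 0.10, adjusted p = 0.000695) and 0.51 with NT (adjusted p = 0.0016), below the fold threshold. The receptor of fractalkine, Cx3cr1, had 0 to 8 scaled reads per library. Of 24 chemokine receptors listed, 7 were in the table and 2 could be tested. Ackr3, the scavenging receptor of Cxcl12, was at 325 and 306, 739 and 762, and 668 and 659, and was called higher with both ligands (log2 1.25 and 1.07). Cxcr4, the signaling receptor, was at 270 and 328 with DMSO and 296 to 354 in the ligand libraries, with adjusted p of 0.154 and 0.83. So of these receptors of Cxcl12 the scavenging one was called and the signaling one was not.

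Cxcl1, a neutrophil attractant, was at 28 and 15 under DMSO, 13 and 15 under ET-3, and 3 and 4 under NT. ET-3 and DMSO libraries met at 15, whereas both NT libraries stood below all others. The log2 fold change was -0.53 with ET-3 (SE 0.38, adjusted p = 0.254) and -2.27 with NT (SE 0.38, adjusted p = 0.000511). Its neighbour Cxcl5 on chromosome 5, too low to test, was at 15 and 9 under DMSO, 0 and 1 under ET-3, and 0 and 0 under NT. Against the floor of 3 reads, Cxcl5 was 9.94-fold lower with NT. The 2 other tested chemokines had adjusted p above 0.05 in both comparisons, the lowest at 0.0805.

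In the interleukin-6 family, 8 of 10 members were tested. Among these members the called receptors were all lower, and a ligand was called in each direction. ET-3 had 1 member called higher and 4 lower, and NT 1 higher and 3 lower. Cntfr, an IL-6 family receptor gene whose symbol falls outside the rule, went the other way. It was called higher under both ligands, with a DMSO mean under 5 and an NT call that was lost with no level filter. Osmr, the OSM-specific receptor chain, was at 382 and 333 under DMSO, 95 and 155 under ET-3, and 143 and 117 under NT. Every ligand library was below the DMSO libraries, and the log2 fold change was -1.55 with ET-3 (SE 0.19, adjusted p = 6.37e-05) and -1.46 with NT (SE 0.19, adjusted p = 0.000102). Its neighbour on chromosome 15, Lifr, which encodes the LIF receptor chain, was at 343 and 386, 168 and 187, and 215 and 201. Lifr was called lower with ET-3 (log2 -1.03, SE 0.09, adjusted p = 3.77e-06), and with NT it fell by 0.80 on the log2 scale (adjusted p = 2.4e-05), short of the fold threshold. The ET-3 call rested on the threshold, with values of -0.95 without DMSO replicate 2 and -0.96 without ET-3 replicate 1. NT minus ET-3 was 0.23 for Lifr (95% interval 0.03 to 0.42, adjusted p = 0.183), so a difference between the ligands was not shown.

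Il6st, the shared gp130 chain, had the highest level of the family and was at 1510 and 1565 under DMSO, 858 and 915 under ET-3, and 1028 and 994 under NT. Its log2 difference from DMSO was -0.79 with ET-3 (SE 0.05, adjusted p = 3.66e-07) and -0.60 with NT (adjusted p = 2.65e-06). Il11ra1, the IL-11-specific chain, was at 29 and 38, 7 and 11, and 19 and 12. Its log2 fold change was -1.80 with ET-3 (SE 0.35, adjusted p = 0.00111) and -1.08 with NT (adjusted p = 0.0196). The NT call of Il11ra1 was lost without DMSO replicate 1 (-1.27), DMSO replicate 2 (-0.90) or NT replicate 2 (-0.77). Il11ra1 has near-identical copies in the mouse genome, and its reads may have been split between them, which leaves its values uncertain. Il6ra was at 30 and 13, 41 and 36, and 30 and 41, with overlap between DMSO and NT, and passed the adjusted p with ET-3 only (log2 0.92, adjusted p = 0.0437). Without DMSO replicate 1, Il6ra was called higher under both ligands (1.49 and 1.37). Thus the gp130, LIF, OSM and IL-11 chains all passed the adjusted p in the lower direction under both ligands, and the IL-6 chain did not pass in that direction.

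The ligands of the family moved apart. Il11 was at 37 and 19 under DMSO, 106 and 107 under ET-3, and 120 and 109 under NT, so it rose while its receptor fell. Against DMSO, Il11 changed by a log2 of 1.96 with ET-3 (SE 0.26, adjusted p = 8.34e-05) and 2.07 with NT (SE 0.26, adjusted p = 6.1e-05). Ctf1, which encodes cardiotrophin and acts through Lifr and gp130, was at 79 and 73, 19 and 22, and 21 and 22. The log2 fold change was -1.84 with ET-3 (SE 0.22, adjusted p = 3.98e-05) and -1.77 with NT (SE 0.22, adjusted p = 5.5e-05). Lif was at 13 and 9, 13 and 13, and 5 and 12, with overlapping groups and adjusted p of 0.637 and 0.407. Il6 was at 3 and 3 with DMSO and at 0 in all ligand libraries, too low to test.

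**Figure D2:**
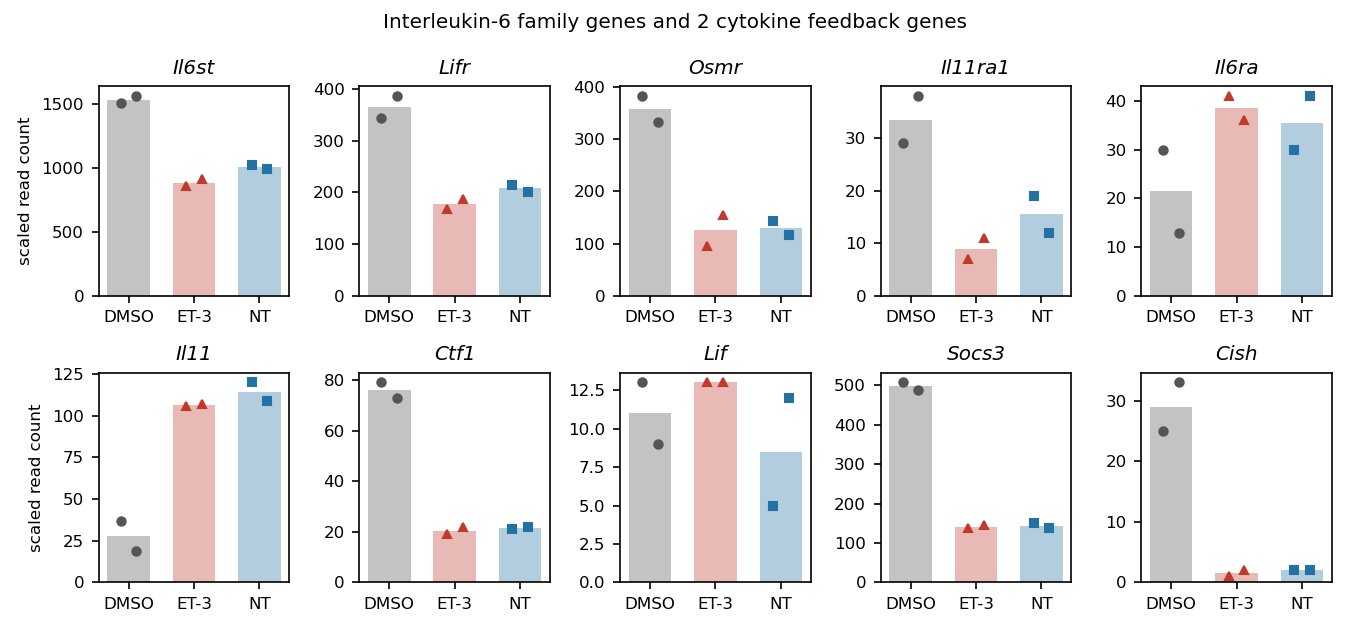
Scaled read counts (linear axes from 0) of 8 interleukin-6 family genes and of Socs3 and Cish in each library (points) with the mean of the 2 libraries per group (bars). Il6st, Lifr, Osmr, Il11ra1, Ctf1, Socs3 and Cish stood lower in all 4 ligand libraries than in both DMSO libraries, and Il11 stood higher.

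Of the JAK-STAT genes and their feedback inhibitors, 26 of 27 listed were tested, 0 were called higher and 5 lower (19.2%) under each ligand, against 14.9% of all genes lower with ET-3 and 13.2% with NT. Socs3, the feedback inhibitor of gp130 signaling, was at 507 and 487 under DMSO, 137 and 146 under ET-3, and 151 and 137 under NT (log2 -1.81 and -1.78, SE 0.08, adjusted p = 4.72e-08 and 5.66e-08). Cish, a feedback inhibitor induced through STAT5, was at 25 and 33, 1 and 2, and 2 and 2 (log2 -3.60 and -3.31, adjusted p = 3.49e-05 and 6.74e-05). Both genes were separated between DMSO and the ligand libraries, and with no level filter the adjusted p of Cish, whose ligand groups had means under 5, was 0.000622 and 0.000914. Stat5a (log2 -1.44 and -1.06), Stat2 (-1.70 and -1.35) and the phosphatase gene Ptpn6 (-1.91 and -1.60) were the other genes called lower, and without NT replicate 2 the NT value of Stat5a was -0.99 and not called. The list's median was -0.31 with ET-3 and -0.16 with NT, beside -0.01 over all genes.

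In the interleukin-1 family, 8 of 10 members were tested. ET-3 had 2 called higher and 1 lower, and NT 3 higher and 1 lower. Besides Il18rap, the accessory chain Il1rap, which the receptors for IL-1, IL-33 and IL-36 share, was at 38 and 32 under DMSO, 139 and 129 under ET-3, and 139 and 158 under NT. Its log2 fold change was 1.91 with ET-3 (SE 0.14, adjusted p = 1.59e-06) and 2.06 with NT (SE 0.14, adjusted p = 1.02e-06). Both accessory chains therefore stood above DMSO in every ligand library. The ligand-binding IL-1 receptor gene Il1r1 was at 435 and 332, 372 and 365, and 376 and 397. All its ligand libraries lay between the DMSO libraries, with log2 fold changes of -0.04 and 0.02 whose sign depended on the scaling or on the library left out (adjusted p = 0.73 and 0.856).

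Il1rl2, the IL-36 receptor chain, was at 10 and 2, 8 and 13, and 15 and 14, and was called higher with NT (log2 1.43, adjusted p = 0.0466). The call was lost without either ET-3 library (1.43 in both), without DMSO replicate 2 (0.49) and without NT replicate 1 (1.38) or 2 (1.48). Il1r1, Il1rl2, Il1rl1 and Il18rap lie within 327 kb of chromosome 1 (chr1:40225080-40551705), and Il1rl1, the IL-33 receptor, had at most 5 scaled reads in any library. Without DMSO replicate 1, Il1rl2 was also called with ET-3 (1.90). The neighbours thus ranged from no call (Il1r1) to a call under both ligands (Il18rap).

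The ligand Il1b was at 42 and 50 under DMSO, 25 and 12 under ET-3, and 14 and 23 under NT (log2 -1.35 and -1.30, SE 0.37, adjusted p = 0.00858 and 0.0106). Both DMSO libraries lay above all ligand libraries, which overlapped between ET-3 and NT. The ET-3 call was lost without DMSO replicate 1 (-1.47), DMSO replicate 2 (-1.23) or ET-3 replicate 2 (-0.85). The NT call of Il1b was lost without DMSO replicate 1 (-1.43), DMSO replicate 2 (-1.18) or NT replicate 1 (-0.96). Il18, the ligand of the receptor that holds Il18rap, had 3 to 10 scaled reads per library, and Il33 had 18 to 33, with adjusted p of 0.147 or above for both ligands. Il18bp, the secreted inhibitor of IL-18, was at 27 and 18, 39 and 43, and 45 and 38, and stood just outside the fold threshold (log2 0.86 and 0.88, adjusted p = 0.0121 and 0.0115). It was called under both without DMSO replicate 1 (1.14 and 1.16).

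Of the genes for TNF receptor adaptors, NF-kappaB and IL-1 signaling, all 39 listed were tested. ET-3 had 2 called higher (5.13%, against 6.62% of all genes) and 3 lower (7.69%, against 14.9%). NT had 4 higher (10.3%, against 7.3%) and 1 lower (2.56%, against 13.2%), with list medians of -0.09 and 0.02. Sigirr, an inhibitory member of the IL-1 receptor family, was at 2 and 7 under DMSO, 57 and 68 under ET-3, and 63 and 63 under NT (log2 3.69 and 3.71, SE 0.40, adjusted p = 2.18e-05 and 2.23e-05). Traf1 was at 4 and 1, 6 and 7, and 11 and 14, and was also called higher with both ligands. Traf5, a TNF receptor adaptor, was at 164 and 196, 89 and 78, and 89 and 78 (log2 -1.10 in both, adjusted p = 6.3e-05 and 6.6e-05), and was at -0.97 under both without DMSO replicate 2. The ET-3 call of Traf1 (log2 1.24) was lost without DMSO replicate 2 (0.58), ET-3 replicate 1 (1.34) or 2 (1.15), or either NT library (1.24 in both). Sigirr and Traf1 had a DMSO mean under 5, and with no level filter the adjusted p of Sigirr was 0.00124 under ET-3 and 0.00128 under NT, and that of Traf1 was 0.0906, no longer called, and 0.0176.

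In the interleukin-17 family, 5 of 6 members were tested, with 1 called higher and 1 lower under ET-3 and 2 higher and 1 lower under NT. Il17rb, the receptor chain for IL-17B and IL-25, was at 37 and 41 under DMSO, 4 and 4 under ET-3, and 3 and 4 under NT. The ligand libraries lay far below DMSO, with a log2 fold change of -3.0 with ET-3 (SE 0.34, adjusted p = 3.34e-05) and -3.16 with NT (SE 0.34, adjusted p = 2.44e-05). Its ligand Il17b, too low to test, was at 9 and 13 with DMSO and at 0 in all ligand libraries. Against the floor of 3 reads, Il17b was 6.19-fold lower with ET-3 and 8.64-fold lower with NT. Il17ra, the shared chain, was at 652 or above with DMSO and 480 to 548 in the ligand libraries (log2 -0.38 and -0.28, adjusted p = 0.000178 and 0.0014). Il17rc was at 121 and 121 with DMSO and 72 to 77 with the ligands (log2 -0.71 and -0.65, adjusted p = 0.000619 and 0.00112). All 3 of these chains passed the adjusted p in the lower direction.

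The remaining IL-17 family genes rose. Il17d, a ligand, was at 4 and 2, 13 and 10, and 21 and 16 (log2 1.68 and 2.32, with adjusted p of 0.0128 and 0.00389 in the fit with no level filter). Il17rd, also known as Sef and as an inhibitor of FGF signaling, was at 32 and 54, 93 and 75, and 91 and 99. It was called with NT (log2 1.17, SE 0.23, adjusted p = 0.00145) and passed the adjusted p but lay just outside the fold threshold with ET-3 (0.99, adjusted p = 0.00383). Without DMSO replicate 1 the NT value was 0.80, and the ET-3 value was 1.36 without DMSO replicate 2 and 1.14 without ET-3 replicate 2.

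In the TNF family, 13 of 23 members were tested, with 2 called higher and 2 lower under ET-3 and 3 higher and 2 lower under NT. After Tnfrsf13c the next largest fall was that of Tnfrsf19. This receptor, also called TROY, was at 167 and 183 under DMSO, 24 and 27 under ET-3, and 37 and 33 under NT (log2 -2.73 and -2.29, SE 0.17, adjusted p = 5.22e-07 and 1.92e-06). Tnfrsf21, the death receptor DR6, was at 151 and 100, 274 and 270, and 301 and 310 (log2 1.14 and 1.31, SE 0.15, adjusted p = 9.49e-05 and 3.82e-05). Its ET-3 value was 0.84 without DMSO replicate 2. Tnfrsf22, a decoy receptor for TRAIL, was at 124 and 155, 316 and 363, and 317 and 330 (log2 1.28 and 1.22, SE 0.11, adjusted p = 3.73e-06 and 5.86e-06).

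Tnfrsf22 lies on chromosome 7 beside its paralogs Tnfrsf23 and Tnfrsf26, and their reads may be hard to assign. Tnfrsf23 went the other way, from 267 and 254 with DMSO to 217 to 227 in the ligand libraries (log2 -0.23 and -0.22, adjusted p = 0.0157 and 0.0213). Tnfrsf26 was at 0 with DMSO and at 2 to 8 with the ligands, too low to test. Of these paralogs only Tnfrsf22 was called.

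Tnfrsf12a, the TWEAK receptor, was the most abundant receptor per length among the members and was not called. It was at 634 and 676, 692 and 620, and 583 and 544, with a log2 fold change of 0.00 with ET-3 (SE 0.07, adjusted p = 0.994, with a sign that depended on the library left out) and -0.22 with NT (adjusted p = 0.0149). Its ligand Tnfsf12 was at 14 and 8, 20 and 14, and 19 and 27, and was called higher with NT (log2 1.03, SE 0.36, adjusted p = 0.0298). The call of Tnfsf12 was lost without DMSO replicate 2 (0.66), NT replicate 1 (1.27) or NT replicate 2 (0.78), and 48.3% of its exonic bases are shared with the read-through gene Tnfsfm13. Tnfrsf1a, the main TNF receptor, was at 448 and 509, 419 and 441, and 434 and 437 (adjusted p = 0.0722 and 0.111), and Tnf itself had 1 to 7 scaled reads. Tnfrsf1b, the other TNF receptor, was at 221 and 219, 316 and 357, and 346 and 386 (log2 0.61 and 0.73, adjusted p = 8.6e-05 and 2.49e-05). Receptor levels for TNF and TWEAK thus stayed within the fold threshold under both ligands.

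**Figure D3:**
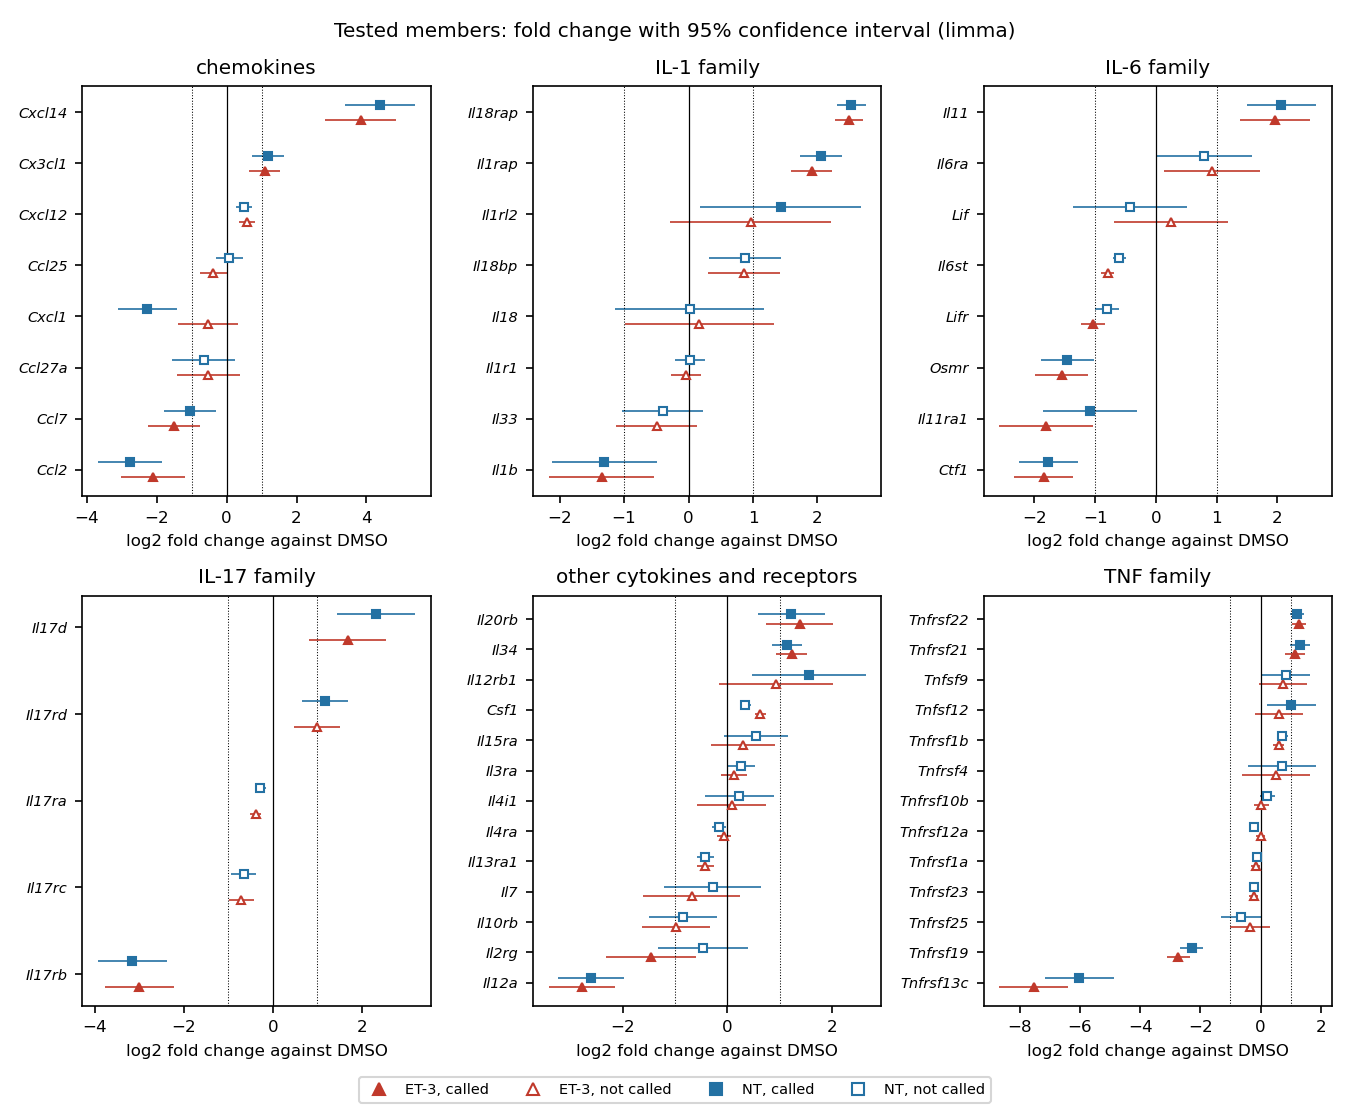
Log2 fold change against DMSO with its 95% confidence interval for the 55 tested members by family, ET-3 as triangles and NT as squares, filled where called. Dotted lines mark the 2-fold threshold, and the 2 ligands share the DMSO libraries. Tnfrsf13c lies farthest to the left (-7.54 and -6.02) and Cxcl14 farthest to the right (3.83 and 4.38).

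Among the other cytokines and receptors, 13 of 17 were tested, with 2 called higher and 2 lower under ET-3 and 3 higher and 1 lower under NT. Il12a, the p35 subunit of IL-12, was at 77 and 66 under DMSO, 10 and 9 under ET-3, and 13 and 9 under NT (log2 -2.79 and -2.61, SE 0.28, adjusted p = 1.48e-05 and 2.47e-05). The receptor chain Il12rb1 was at 7 and 2, 10 and 7, and 12 and 15, with a log2 of 1.56 with NT that was not called in the fit with no level filter (adjusted p = 0.0552). Its call with the filter was lost without DMSO replicate 2 (0.85), NT replicate 1 (1.71) or NT replicate 2 (1.41), and without DMSO replicate 1 it was called with ET-3 as well (1.64). Il20rb, a receptor chain for IL-20 family cytokines, was at 14 and 15, 42 and 37, and 27 and 46 (log2 1.38 and 1.23, SE 0.29, adjusted p = 0.00178 and 0.00381). The NT value of Il20rb was 1.18 without DMSO replicate 1 and 0.85 without NT replicate 2, and neither was called.

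Il2rg, the common gamma chain, was at 16 and 17, 4 and 7, and 9 and 15, and was called lower with ET-3 (log2 -1.47, SE 0.39, adjusted p = 0.00729). With NT it was -0.47 (adjusted p = 0.317), and NT minus ET-3 was 1.00 (95% interval 0.14 to 1.86, adjusted p = 0.187). The ET-3 call was lost without DMSO replicate 1 (-1.51), DMSO replicate 2 (-1.43) or ET-3 replicate 1 (-1.13), and 30.5% of the exonic bases of Il2rg are shared with Gm20489. Il7, a ligand of receptors with this chain, had 3 to 8 scaled reads per library, and Il10rb, an IL-10 receptor chain, was at 77 and 78, 27 and 55, and 38 and 48, just outside the threshold with ET-3 (log2 -0.99, adjusted p = 0.0135). Without ET-3 replicate 2, Il10rb was called with ET-3 at -1.49, and without ET-3 replicate 1 Il7 was called at -1.08. Il10rb shares 14.9% of its exonic bases with Gm21970.

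The ligands of the CSF1 receptor stood out by their level. Csf1, the macrophage growth factor, had the highest level of all members, 379 per exonic kilobase under DMSO, 589 under ET-3 and 481 under NT. Its scaled read count was 1985 and 2018, 3201 and 3015, and 2614 and 2464, with the 3 groups in separate ranges. The log2 fold change was 0.63 with ET-3 (SE 0.05, adjusted p = 1.62e-06) and 0.34 with NT (adjusted p = 0.000136), below the fold threshold. Il34, the other ligand of that receptor, was at 108 and 85, 225 and 227, and 193 and 235 (log2 1.23 and 1.14, SE 0.13, adjusted p = 1.89e-05 and 3.35e-05), and the NT value was 0.97 without DMSO replicate 2. The receptor gene Csf1r had 4 to 13 scaled reads per library.

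After Csf1, the members with the highest mean level per exonic kilobase were Tnfrsf12a (323), Cxcl12 (177), Tnfrsf1a (173) and Il13ra1 (111). The order of Cxcl12 and Tnfrsf1a differed between groups, with 137 and 185 per kilobase under DMSO and 201 and 166 under ET-3. Il13ra1, a receptor chain for IL-4 and IL-13, was at 513 and 479, 347 and 391, and 384 and 355 (log2 -0.43 and -0.42, adjusted p = 0.000526 and 0.000589). None of these 5 members was called under either ligand.

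**Figure D4:**
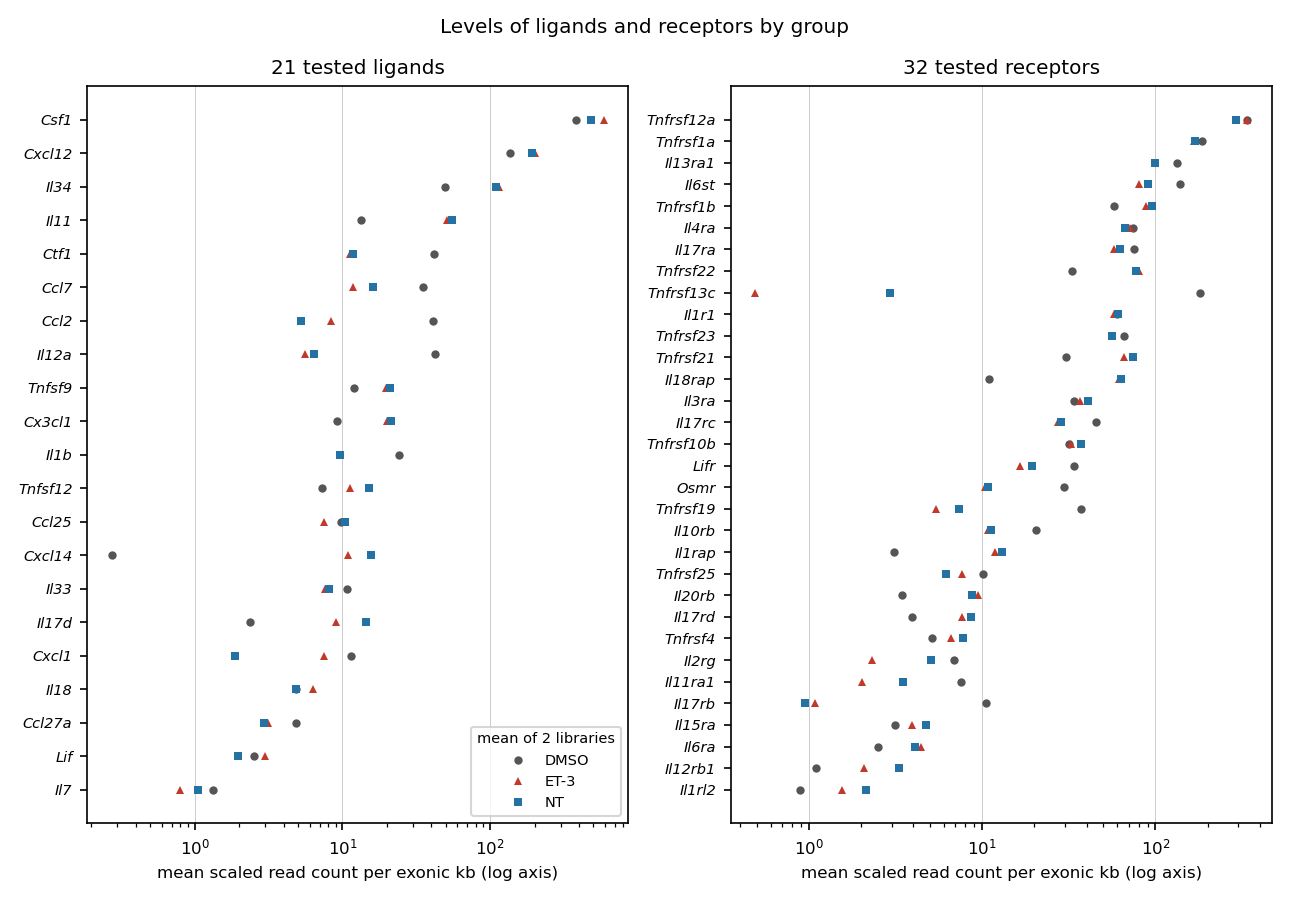
Mean scaled read count per exonic kilobase (log axis) of the 21 tested ligands and 32 tested receptors, with DMSO as circles, ET-3 as triangles and NT as squares, each the mean of 2 libraries. Csf1 (379, 589 and 481) led the ligands and Tnfrsf12a the receptors, and Tnfrsf13c fell from 182 with DMSO to 0.488 with ET-3 and 2.93 with NT.

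Of 42 further cytokine and TNF family genes whose symbols fall outside the rule, 29 were in the table and 25 were tested. ET-3 had 4 called higher (16%, against 6.62% of all genes) and 5 lower (20%, against 14.9%). The 4 included Cd40, at 5 and 0 with DMSO and 10 and 13 with ET-3. With its DMSO mean under 5, Cd40 was not called in the limma fit with no level filter (adjusted p = 0.0862). NT had 3 higher (12%, against 7.3%) and 5 lower (20%, against 13.2%). Higher under both were the neurotrophin receptor gene Ngfr (93 and 115, 609 and 600, 591 and 644), the KIT ligand gene Kitl (25 and 25, 148 and 140, 161 and 188) and Cntfr, an IL-6 family receptor gene. Lower under both were Cd27 (35 and 31 with DMSO and 0 in all ligand libraries), Eda2r (860 and 755, 195 and 163, 180 and 198), Epor (63 and 61, 20 and 22, 27 and 25), Fas (27 and 24, 2 and 7, 3 and 2) and Csf2rb (13 and 14, 0 and 3, 4 and 4). Against the floor of 3 reads, Cd27 was 19.5-fold lower with ET-3 and 27.2-fold lower with NT. Leaving out DMSO replicate 2 (0.65) or any ET-3 or NT library (1.06 in each case) ended the NT call of Cntfr. Leaving out DMSO replicate 1 (-1.58), NT replicate 1 or NT replicate 2 (-1.54 in both) ended that of Csf2rb. Cntfr, Cd27, Fas and Csf2rb also had a mean under 5 in the lower group. With no level filter the NT calls of Cntfr (adjusted p = 0.0579) and Csf2rb (0.113) were lost, and the other calls of these genes had adjusted p of 0.0216 or below. Cd27, Eda2r and Fas belong to the TNF receptor family, as Tnfrsf13c and Tnfrsf19 do. So do Ngfr, Tnfrsf21 and Tnfrsf22, which were called higher under both ligands. Called genes of this receptor family thus moved in both directions.

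The ligands were also compared with each other. Past both thresholds, 1 of 55 members differed between NT and ET-3, against 0.079% of all genes (11 of 13921), and by the adjusted p alone 2 members did (3.64%), against 2.69%. Cxcl1 was lower with NT (log2 -1.74, SE 0.38, 95% interval -2.60 to -0.89, adjusted p = 0.0482). Csf1 was lower with NT than with ET-3 by a smaller amount (log2 -0.29, SE 0.05, adjusted p = 0.0379). The Cxcl1 difference lost its adjusted p whichever library was left out, with values from -1.90 (without NT replicate 2) to -1.58 (without NT replicate 1), and -1.74 without DMSO replicate 1 or 2, -1.84 without ET-3 replicate 1 and -1.65 without ET-3 replicate 2. The Csf1 difference also lost its adjusted p whichever library was left out (-0.33 to -0.25), and with the trend of each library against coverage removed it was 0.00023. The ligands share the DMSO libraries, so their 2 sets of fold changes are not independent of each other.

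The 26 members too low to test were 7 chemokines, 10 TNF family genes and 9 others. The highest value among them was 15, that of Cxcl5 with DMSO, and 9 of the 10 TNF family genes stayed below 9 in all libraries. Tnfsf15, a TNF family ligand also called TL1A, was at 11 and 9 with DMSO and at 1, 0, 0 and 0 with the ligands, at least 8.21-fold lower with NT. Il2rb was at 8 and 10, 4 and 1, and 1 and 1. These low members, like Ccl11, Cxcl5, Il6 and Il17b, and also Il6ra, Il17ra, Il17rc, Tnfrsf1b, Tnfrsf23, Cxcr4 and Cd40, were named after their values had been seen.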

How the data were processed

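RNA-seq of 6 libraries (3 groups of 2, assigned from the sample labels) was analysed. Per the labels, libraries were made with SMART-Seq HT from total RNA, and the submitters' processing notes list FastQC, Trimmomatic 0.38, STAR 2.7.7a, featureCounts 1.6.5 and DESeq2 1.30.0 with mm10, whereas the study's methods name another, stranded kit and other tools. Where counting ignored strand, reads of a gene and an antisense partner cannot be told apart. The authors deposited 1 table of whole numbers, a signal that equals read counts times a factor per library (0.781 to 1.19, estimated here from the gaps in the numbers and tested on simulated data), rounded. It is not a count, so no count model was run. limma 3.58.1 (R 4.3.3) with a mean-variance trend was fitted to log2(value + 1) of 13921 genes with a mean of at least 5, over all 6 libraries. Fold changes are on that scale and understate changes of low genes. On simulated data 196 of 200 changed genes were recovered, with 3 false calls. These changed genes all had a mean of at least 20 and changed by more than the fold threshold. Recovery of lower genes or of changes near the threshold was not simulated. Exonic lengths and coordinates came from GENCODE M21 (GRCm38). Counting intervals are exact binomial. A listed gene is not reported here. Members and lists were chosen with earlier results of these data known. Named in the text were all called members, those differing between ligands, the 5 most abundant per length, known partners of called ones, the members nearest the threshold, and listed pathway genes called under both ligands. Alternatives covered scaling, filter, pseudocount, test, samples in the fit, a replicate block and each library left out, and, chosen after seeing the data, removal of a trend with coverage. Whether same-numbered libraries deviate together was checked.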

Additional observations from a re-analysis of the deposited data

Results flagged for a closer look

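Cxcl1 and Csf1 differed between the ligands in a direct test of the difference (NT against ET-3, limma over 13921 genes), which is why they are listed. Csf1 stood at 3201 and 3015 under ET-3, against 2614 and 2464 under NT, a log2 difference of -0.29 (adjusted p = 0.0379). It was lower in 2 of 2 NT libraries than in either ET-3 library. The adjusted p was at most 0.05 in 6 of 17 alternatives and ranged from 0.00132 to 0.998. Cxcl1 stood at 13 and 15 under ET-3, against 3 and 4 under NT, a log2 difference of -1.74 (adjusted p = 0.0482), again lower in 2 of 2 NT libraries. Its adjusted p ranged from 0.0358 to 0.712 over 16 alternatives and was met in 4. The NT libraries held more reads on genes (4986598 and 5396233) than the ET-3 libraries (3629074 and 3931862), and the part of depth in these differences was not tested.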

How the results depend on the processing

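The counts of members called higher with ET-3 (10), higher with NT (14), lower with ET-3 (12) and lower with NT (11) stayed within 1.5 times under library totals, upper quartile scaling, pseudocounts of 0.5 and 5, voom on recovered reads, removal of the coverage trend and the 2 groups alone. The exceptions follow, and the cause was not tested unless named. With a mean of at least 20, which tests fewer genes, 9 were higher and 7 lower with NT. With no filter, 18 were lower with NT. Without a fold threshold, 16 were higher with ET-3, 20 lower with NT and 2 lower with NT than with ET-3. With each treated pair averaged, which leaves fewer samples, 4 were higher under each ligand. Leaving out 1 library gave 9 to 16 members higher with ET-3. The count of 1 member lower with NT than with ET-3 (Cxcl1) was 0 with no filter, a mean of at least 20, a pseudocount of 0.5, the replicate block, the 2 groups alone, averaged pairs, the coverage trend removed and each library left out. In the reported limma fit 9 members had an unadjusted p under 0.05 in that comparison. Listed pathway genes numbered 7 higher and 13 lower with ET-3 and 8 and 11 with NT. They moved to 4 higher with ET-3 and 7 lower with NT at a mean of at least 20, to 21 and 39 (ET-3) and 21 and 34 (NT) without a fold threshold, and to 3 higher under each with averaged pairs. No value called at both thresholds changed sign. With the coverage trend removed, the NT minus ET-3 difference of Csf1, which had passed the adjusted p alone, changed sign (0.00023). Under the same setting the signs of Il1r1 with NT (-0.038), Il7 with NT (0.017) and Tnfrsf12a with ET-3 (-0.12) turned. Library totals turned that of Il1r1 with ET-3 (0.045). Over libraries left out, Il18 ran from -0.078 to 0.89 with ET-3 and -0.22 to 0.26 with NT, Il1r1 from -0.24 to 0.15 and -0.17 to 0.22, Lif with NT from -0.98 to 0.14, Tnfrsf12a with ET-3 from -0.078 to 0.080 and Cxcr4 with NT from -0.11 to 0.17. The replicate numbers did not pair the libraries (correlations of deviations -0.01, -0.07 and -0.02), and the replicate block gave 10, 13, 12 and 11 members. Library totals moved the median of all genes to 0.08 with ET-3 and 0.10 with NT, and ended the NT calls of Ccl7 and Il11ra1 and the ET-3 call of Lifr. A pseudocount of 5 ended the NT calls of Ccl7, Il11ra1, Il1rl2 and Tnfsf12. With the coverage trend removed, the NT call of Il11ra1 and the ET-3 call of Lifr were lost. The NT calls of Il1rl2 and Tnfsf12 were also lost with no filter and with the 2 groups alone, and that of Il1rl2 with a pseudocount of 0.5 and the replicate block. Reads per library limit genes with few reads, and intervals cover counting error only.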
